A study of Sus scrofa with 8 samples.

Results

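The 4 genes described here, DNAJA1, DNAJB1, HSP90AB1 and PTGES3, encode J-domain (HSP40) cochaperones, an HSP90 and the HSP90 cochaperone p23. They were taken by gene symbol: every probe set whose only symbol in the platform annotation was one of the 4 was used, whatever its value. This gave 6 probe sets of 23999, since DNAJA1 and PTGES3 have 2 each and DNAJB1 and HSP90AB1 have 1 each. RNA came from left ventricular muscle away from the infarct of 8 castrated male Yorkshire pigs after myocardial infarction, younger than a year and with a mean weight of 54.5 kg, and 1 Affymetrix porcine array was run for each pig. The pigs were 3 untreated, 3 infused with GGF2 at 0.67 mg/kg each time (low dose) and 2 infused with 2.0 mg/kg (high dose), over 4 weeks. GGF2, glial growth factor 2, is a form of neuregulin-1, which acts on heart muscle through ERBB receptors, and the comparisons ask which transcripts differ after its infusion. All 3 groups carried an infarct, so they are compared as infarcted hearts with and without GGF2, and no uninfarcted heart was analysed here.

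J-domain proteins bring unfolded proteins to HSP70 and stimulate it to hydrolyse ATP. HSP70 can pass a client on to HSP90, which holds kinases, steroid hormone receptors and other signalling proteins in a state that can be activated. ERBB2, a receptor that takes part in neuregulin signalling, is a well-known HSP90 client. In striated muscle HSP90 works with UNC45B to fold myosin, and many genes of the system are induced by the heat shock factor HSF1 when unfolded protein accumulates.

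Values are RMA expression values on the log2 scale, so a difference of 1 is a doubling, and animals are written U1 to U3 (untreated), L1 to L3 (low dose) and H1 and H2 (high dose). The array medians lay between 5.34 and 5.40 and the arrays correlated with each other at 0.981 to 0.994 across probe sets. By group the medians did not overlap, at 5.343 to 5.353 in high-dose, 5.360 to 5.379 in untreated and 5.386 to 5.397 in low-dose pigs. The tissue label was borne out by 13 measured cardiomyocyte markers, whose mean level per animal was 13.41 to 13.51 in untreated, 13.38 to 13.48 in low-dose and 13.29 to 13.50 in high-dose pigs. The log2 gap between the 3′ and 5′ probe sets of the actin control, a sign of RNA integrity, was 4.88 to 5.26 in untreated, 5.48 to 6.04 in low-dose and 4.92 to 5.18 in high-dose pigs. Array L3 had a mean of 8.05 over the Bacillus control transcripts, against 6.61 to 7.39 on the other arrays. By group this mean was 7.114 to 8.052 in low-dose, 6.605 to 7.112 in untreated and 6.780 to 6.930 in high-dose pigs. The low-dose group thus stood apart in the actin gap, and narrowly in the Bacillus controls. The high-dose group stood apart in the hybridisation controls, whose mean was 11.10 to 11.18 in high-dose pigs. That mean was 11.22 to 11.38 in untreated and 11.27 to 11.50 in low-dose pigs. The gaps of the other control genes, ef1a and gapdh, overlapped between low-dose and untreated pigs. For ef1a they were 2.82 to 3.69 and 2.69 to 3.19, and for gapdh 1.32 to 1.62 and 1.09 to 1.65. The mean gap was 3.28 to 3.78 in low-dose and 2.93 to 3.36 in untreated pigs. In high-dose pigs the ef1a gap was 2.76 to 2.98, the gapdh gap 1.10 to 1.17 and the mean gap 3.00 to 3.03. High-dose and low-dose pigs thus overlapped in the ef1a gap, but not in the actin, gapdh or mean gap. In the comparison of the doses, these gaps and the dose go together. A fit with the mean gap of 3 control genes as a covariate is called the gap covariate below. Pig numbers in the labels come in runs, shared by H1 and H2, by U1 and U3, and across groups by U2 and L1, so whatever the numbers mark and the high dose cannot be told apart.

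DNAJB1 had the largest difference of the 6 probe sets in high dose against untreated. It is the classic heat-inducible HSP40, the J-domain partner of HSP70 in refolding and disaggregation. Its level was 6.62, 7.79 and 6.32 in the untreated pigs, 7.82, 7.10 and 8.65 in the low-dose pigs and 8.31 and 8.06 in the high-dose pigs. Both high-dose animals lay above every untreated animal, while the low-dose animals were spread over a wide range that included the highest value of all, in L3. Means were 6.91 ± 0.78 in untreated, 7.86 ± 0.78 in low-dose and 8.18 ± 0.18 in high-dose pigs (SD over 3, 3 and 2 animals). High dose stood 1.27 ± 0.50 (SE) above untreated, a 2.42-fold difference with a 95% confidence interval of 0.13 to 2.42 on the log2 scale, and limma's adjusted p was 0.57. The difference of low dose from untreated was 0.95 ± 0.45 with an adjusted p of 0.998 by limma, and it was 0.55 without L3. Between the doses, DNAJB1 in high-dose animals was 0.33 ± 0.50 above low-dose animals, with a 95% interval of -0.82 to 1.47. With the gap covariate this difference was 0.03, with a covariate for U2 and L1 it was 0.54, and with 1 array left out it ran from -0.05 (without L2) to 0.73 (without L3). U2 was the untreated animal closest to the high-dose pigs.

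DNAJA1, a farnesylated J-domain protein that works with HSC70 in the cytosol, was measured by a pair of probe sets that ordered the groups differently. The brighter probe set read 9.79, 9.90 and 9.48 in untreated, 9.80, 9.69 and 10.44 in low-dose and 10.50 and 10.01 in high-dose pigs. Both high-dose values exceeded all 3 untreated ones, and L3 again stood above the other low-dose pigs. High dose exceeded untreated by 0.53 ± 0.25 (SE; 95% interval -0.05 to 1.11), with a limma adjusted p of 0.659, and by 0.28 when H1 was left out. Low dose exceeded untreated by 0.25 ± 0.23 (adjusted p 0.998 by limma), by 0.46 with the gap covariate, and by 0.02 (without L3) to 0.40 (without L2) when 1 array was left out. High dose exceeded low dose by 0.28 ± 0.25 (adjusted p 0.765), by 0.01 with the gap covariate, and by 0.03 (without H1) to 0.53 (without H2) when 1 array was left out.

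The dimmer DNAJA1 probe set read 6.05, 6.24 and 6.41 in untreated, 6.94, 6.67 and 6.92 in low-dose and 6.61 and 6.37 in high-dose pigs. Here the low dose was the highest group: every low-dose animal lay above every untreated and every high-dose animal. Low dose exceeded untreated by 0.61 ± 0.14 (SE; 95% interval 0.30 to 0.93), which had an unadjusted p of 0.00179 and an adjusted p of 0.998 in limma. High dose exceeded untreated by 0.26 ± 0.15 (adjusted p 0.727 by limma), by 0.14 without H1 and by 0.17 without U1. It differed from low dose by -0.35 ± 0.15 (adjusted p 0.49), which was -0.14 with the gap covariate and -0.23 without H2. Across the 8 arrays the 2 DNAJA1 probe sets correlated at r = 0.35, so the order of the groups for DNAJA1 depends on the probe set read.

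HSP90AB1, the constitutive cytosolic HSP90, had its highest values in the high-dose pigs. Its level was 11.57, 11.42 and 11.63 in untreated, 11.72, 11.58 and 11.27 in low-dose and 12.00 and 11.80 in high-dose pigs. Both high-dose animals lay above all 6 other animals, and the untreated range lay inside the low-dose range. Means were 11.54 ± 0.11 in untreated, 11.52 ± 0.23 in low-dose and 11.90 ± 0.14 in high-dose pigs (SD over 3, 3 and 2 animals). High dose exceeded untreated by 0.36 ± 0.16 (SE; adjusted p 0.626 by limma). It exceeded low dose by 0.38 ± 0.16 (95% interval 0.02 to 0.74, adjusted p 0.469), which was 0.25 without L3 and 0.58 with the gap covariate. Low dose differed from untreated by -0.02 ± 0.14, with a 95% interval of -0.34 to 0.30. This difference was -0.18 with the gap covariate and ran from -0.12 (without L1) to 0.11 (without L3) when 1 array was left out.

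PTGES3, p23, binds HSP90 in its ATP-bound closed state and stabilises the client complex; the same protein is also described as a prostaglandin E synthase. The brighter probe set read 8.86, 8.99 and 8.92 in untreated, 8.61, 8.60 and 9.07 in low-dose and 9.03 and 9.23 in high-dose pigs. High-dose values lay just above all untreated ones, and 2 of the 3 low-dose values lay below them. High dose differed from untreated by 0.21 ± 0.16 (SE; adjusted p 0.812 by limma), low dose by -0.16 ± 0.15 (adjusted p 0.998), and high dose from low dose by 0.37 ± 0.16 (adjusted p 0.495). Without H2 the difference of high dose from untreated was 0.11. That of low dose from untreated was -0.07 with the gap covariate and ran from -0.31 (without L3) to -0.08 (without L2) when 1 array was left out.

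The dimmer PTGES3 probe set gave the clearest separation among the 6. It read 7.42, 7.32 and 7.55 in untreated, 6.97, 7.10 and 7.16 in low-dose and 7.83 and 7.78 in high-dose pigs. The 3 groups did not overlap, with the low dose below and the high dose above untreated. Means were 7.43 ± 0.11 in untreated, 7.08 ± 0.10 in low-dose and 7.80 ± 0.03 in high-dose pigs (SD over 3, 3 and 2 animals). High dose exceeded untreated by 0.37 ± 0.12 (SE; unadjusted p 0.0137, adjusted p 0.478 by limma), and low dose differed from untreated by -0.35 ± 0.11 (unadjusted p 0.0107, adjusted p 0.998). The difference between the doses was 0.72 ± 0.12, a 1.65-fold difference with a 95% interval of 0.45 to 1.00 and a limma adjusted p of 0.147; it ranked 41 of 23999 by p. The 2 PTGES3 probe sets correlated at r = 0.73 over the 8 arrays.

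**Figure D1:**
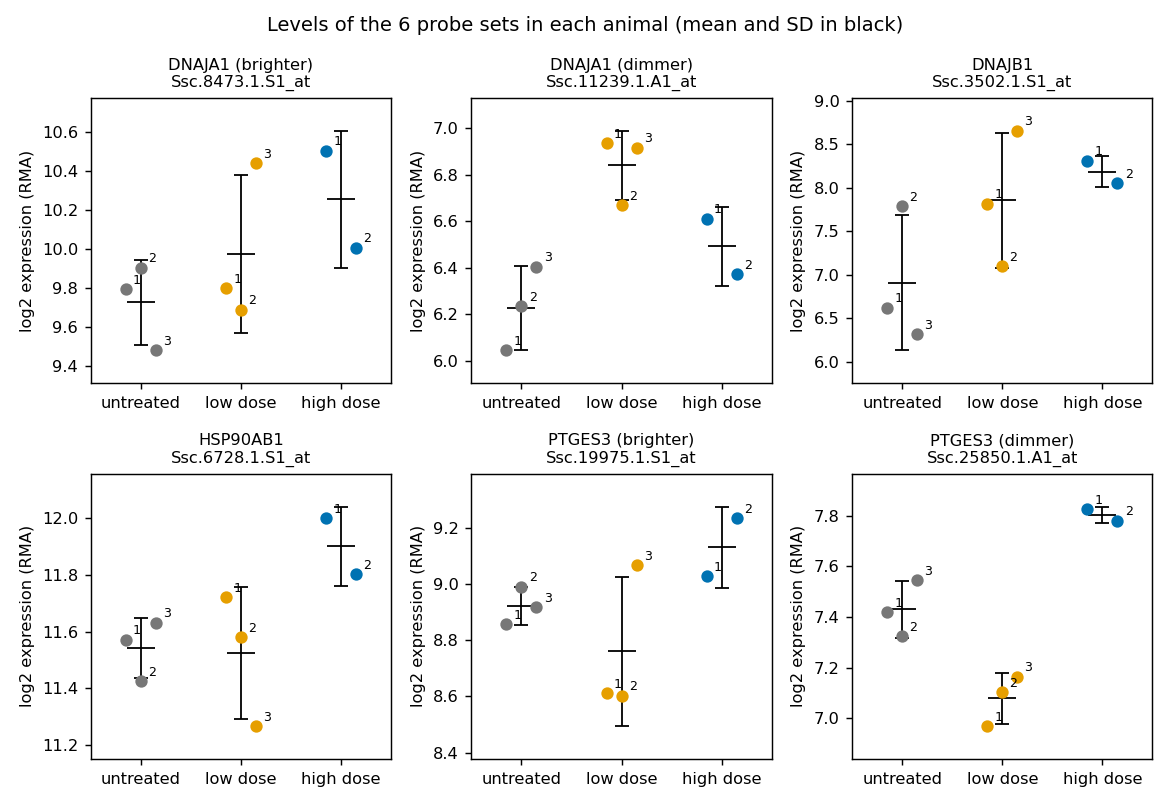
Log2 RMA level of each of the 6 probe sets in every animal, by group (untreated, low dose, high dose; points are animals with their replicate number, black bars the mean and SD). The high-dose points of DNAJB1, the brighter DNAJA1 probe set, HSP90AB1 and both PTGES3 probe sets lie above all untreated points.

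No member passed an adjusted p of 0.05 in any comparison (limma), and over all 23999 probe sets 6 did in high against low dose, 0.0250%, and 0 in the other 3 comparisons. Counts of members are therefore given beside the share over the whole array. The members were chosen with earlier results of these data known, and the 6 probe sets measure only 4 genes. These counts describe the 6 probe sets and are not a test of them. In high dose against untreated all 6 probe sets had a positive difference, where 53.3% of all probe sets did. Of the 6, 5 lay above untreated without overlap, against 14.7% of all probe sets, and 0 lay below, against 12.0%. At an unadjusted p under 0.05 there were 2 higher and 0 lower, against 3.61% and 4.36% of all probe sets. The median difference of the 6 was 0.37, and that of all probe sets was 0.01.

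In low dose against untreated the members divided evenly, with 3 positive differences and 3 negative ones, where 52.0% of all probe sets were positive. The dimmer DNAJA1 probe set was the 1 that lay above untreated without overlap, against 5.23% of all, and the dimmer PTGES3 probe set the 1 that lay below, against 3.87%. The same 2 probe sets had an unadjusted p under 0.05, against 2.77% higher and 1.74% lower over all probe sets. In high dose against low dose 5 were positive, where 51.1% of all probe sets were. HSP90AB1 and the dimmer PTGES3 probe set were the 2 above the low-dose range, against 13.2% of all, and the dimmer DNAJA1 probe set the 1 below it, against 13.0%. At an unadjusted p under 0.05 there were 2 higher and 0 lower, against 4.38% and 5.85%. For the mean of both doses against untreated all 6 were positive, against 53.3% of all probe sets. The PTGES3 probe sets were close to 0 here, the brighter at 0.024 and the dimmer at 0.011. Their sign reversed under 4 and 6 of 18 alternative fits. None of the 6 separated all treated from all untreated animals, which 1.61% of all probe sets did upward and 1.13% downward, and 2 were higher and 0 lower at an unadjusted p under 0.05, against 2.43% and 2.41%. The comparisons with untreated share its 3 arrays, and those with the high dose share its 2 arrays.

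**Figure D2:**
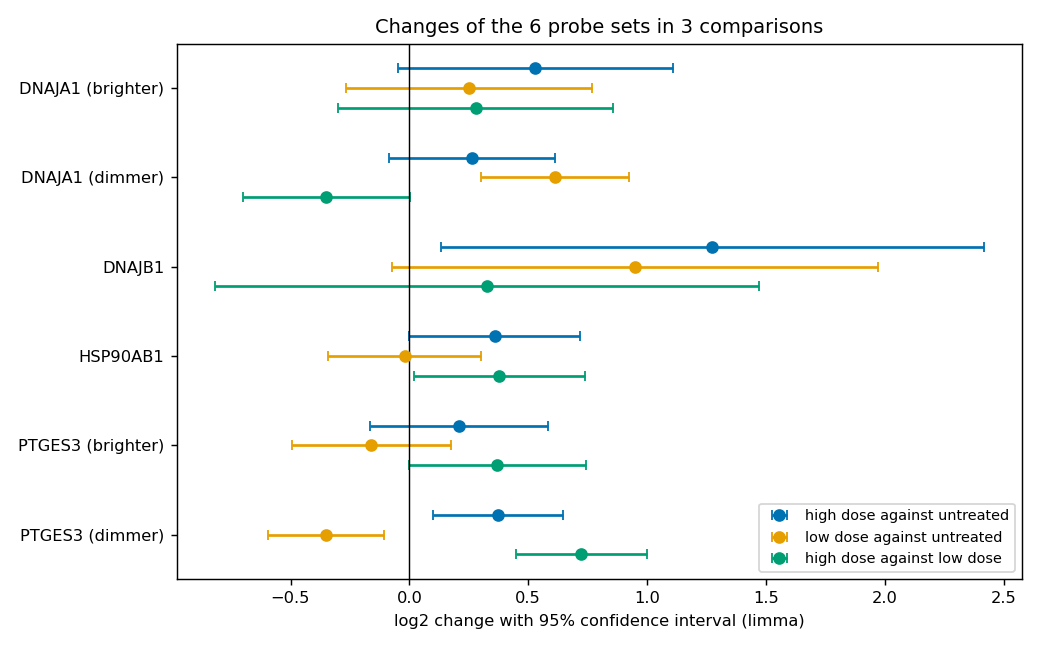
Log2 difference of each of the 6 probe sets in 3 comparisons, with 95% confidence intervals from limma; 0 marks no difference. The interval of DNAJB1 is the widest, and that of the dimmer PTGES3 probe set for high dose against low dose, 0.45 to 1.00, is the farthest from 0.

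The members did not all vary together across animals. DNAJB1 and the brighter DNAJA1 probe set correlated at r = 0.87 over the 8 arrays (Spearman's rho 0.93), and at r = 0.81 when the group means were removed. HSP90AB1 correlated with DNAJB1 at r = 0.01, and with the brighter PTGES3 probe set at r = 0.05, where the deviations within groups ran opposite (r = -0.92). With the dimmer PTGES3 probe set HSP90AB1 correlated at r = 0.61, and at r = -0.18 within groups. The relation of HSP90AB1 to PTGES3 thus depends on the probe set read. These are descriptions over 8 arrays that share the dose groups, and they have no p.

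The named genes most like each member were those with the highest Pearson r over the 8 arrays, among 3013 candidate genes. For DNAJA1 they were NECAP1 (0.948), DPH3 (0.948), GJA1 (a gap junction protein, 0.906), HSPA8 (the constitutive HSP70, 0.900) and SDC4 (0.867). For DNAJB1 they were DPH3 (0.962), TMEM184C (0.944), PER1 (0.941), CSNK1A1 (0.938) and SPTY2D1 (0.929). The genes nearest to HSP90AB1 and PTGES3 were others again. For HSP90AB1 they were HADHA, an enzyme of mitochondrial fatty acid oxidation (0.949), DHX30 (0.947), ECH1 (0.944), ALDH4A1 (0.944) and ACOT8 (0.928). For PTGES3 they were UPRT (0.972), MSRB2 (0.970), KRT10 (0.945), NCOA4 (0.943) and CCDC91 (0.940). DPH3 stood in the lists of both DNAJA1 and DNAJB1.

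Among the other J-domain genes the differences were mixed in sign. At the high dose those of DNAJB9 and DNAJB4, given below, were as large as the 0.53 of the brighter DNAJA1 probe set. Of 47 listed J-domain genes 23 were measured. In high dose against untreated 15 were above and 8 below 0, where 53.3% of all probe sets were above, and 0 passed the test. The median was 0.18, or 0.08 when a gene's probe sets were averaged. Of the 23, 6 lay above untreated without overlap and 2 below, against 14.7% and 12.0% of all probe sets. The 21 genes other than DNAJA1 and DNAJB1 had 13 above and 8 below 0, with a median of 0.07. Of these 21, 4 lay above and 2 below without overlap. DNAJB9, an endoplasmic reticulum cochaperone, differed by 0.58 ± 0.32 (SE) with overlap between the groups, with 0.21 and 0.53 on its other probe sets, and DNAJB4, a cytosolic relative of DNAJB1, by 0.54 ± 0.26 without overlap. In low dose against untreated the median was 0.01, with 12 above and 11 below 0, where 52.0% of all probe sets were above. Of the 21 others 10 were above and 11 below 0, with a median of -0.01.

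Most HSP90 proteins and cochaperones were above untreated at the high dose, by small amounts. Of 31 listed genes 27 were measured, HSP90AB1 and PTGES3 among them. In high dose against untreated 20 were above and 7 below 0, where 53.3% of all probe sets were above. The median was 0.10, and 0 passed. Of the 27, 7 lay above untreated without overlap and 1 below, against 14.7% and 12.0% of all probe sets. The 25 genes other than HSP90AB1 and PTGES3 had 18 above and 7 below 0, with a median of 0.10. Of these 25, 5 lay above and 1 below without overlap. UNC45B, the muscle myosin chaperone, differed by 0.38 ± 0.12 (SE; adjusted p 0.448 by limma) and lay above untreated in both high-dose animals. FKBP4, an immunophilin of the steroid receptor complex, differed by 0.42 ± 0.22 and FKBP5 by -0.36 ± 0.29, with overlap in both. HSP90AA1, the stress-inducible paralog of HSP90AB1, named here after its values were seen, differed by 0.34 on its brightest probe set and by 0.09 to 0.27 on the others. In low dose against untreated 13 were above and 14 below 0, with a median of -0.01, where 52.0% of all probe sets were above. Of the 25 others 13 were above and 12 below 0, with a median of 0.01.

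**Figure D3:**
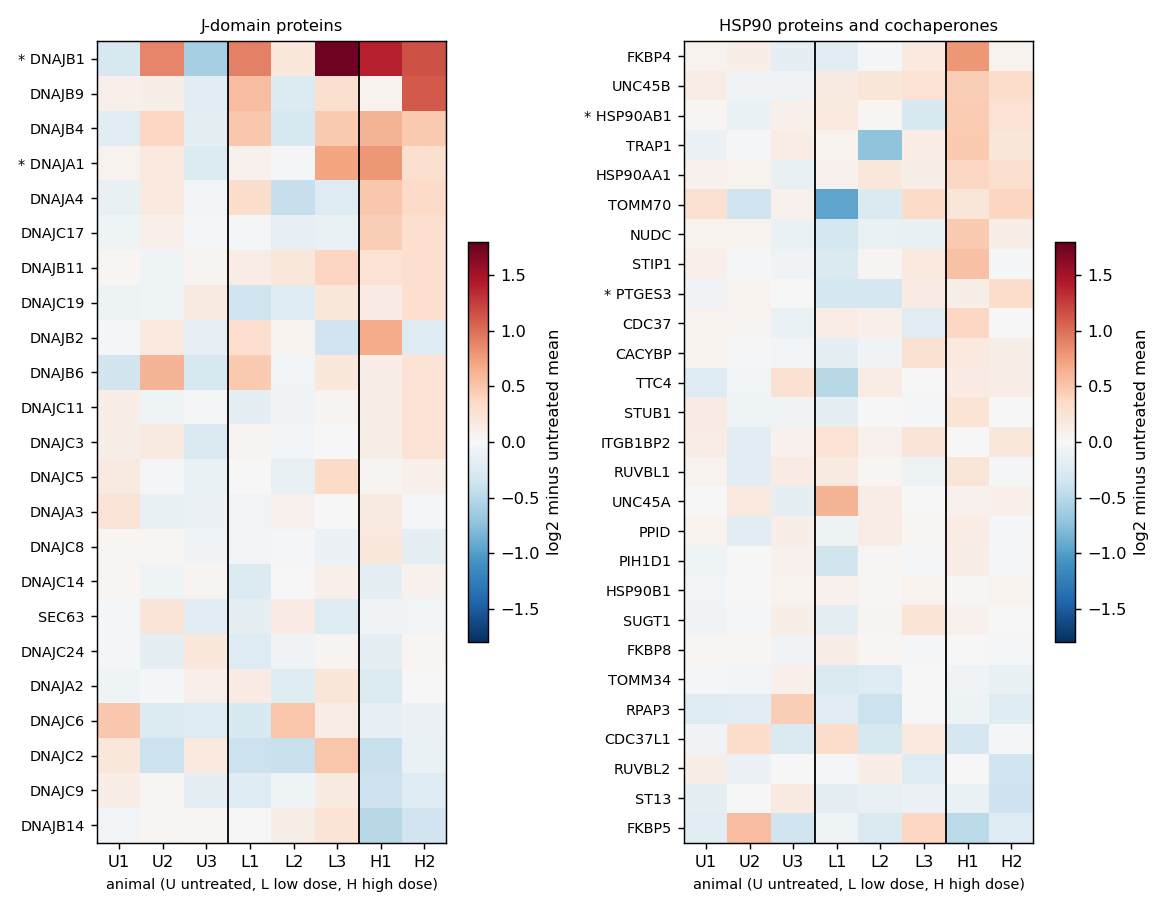
Log2 level of each measured J-domain gene and HSP90-related gene in every animal, minus the gene's mean in untreated pigs (brightest probe set of each gene; an asterisk marks the 4 genes described here; red above and blue below untreated). The strongest colours are in DNAJB1, in L3, H1 and H2, and most other rows are pale.

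Other genes of the heat shock response, in which DNAJB1 is a partner of HSP70, were mostly above untreated at the high dose. Of 18 measured HSP70 proteins and nucleotide exchange factors 16 were above untreated at the high dose, 12 without overlap, with a median of 0.30 (0.18 at the low dose), where 53.3% of all probe sets were above and 14.7% above without overlap. The inducible HSPA6 differed by 1.51 ± 0.28 (SE; adjusted p 0.215 by limma), BAG3, which links HSP70 to selective autophagy, by 1.20 ± 0.53, and HSPH1, an exchange factor for HSP70, by 0.76 ± 0.19. Of 8 small heat shock genes 7 were above untreated, with a median of 0.38, and HSPB1 differed by 0.71 ± 0.20. Of 24 measured heat shock factor targets, a list that holds all 4 genes described here, 21 were above untreated, 14 without overlap, with a median of 0.37; for the 20 others these were 17, 10 and 0.37. The shares over all probe sets were again 53.3% and 14.7%. In each of these lists 0 genes passed. Chaperonins and prefoldins had a median of 0.06 over 13 genes and endoplasmic reticulum chaperones one of 0.09 over 14. The heat shock factor HSF1 itself differed by 0.14 ± 0.12.

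**Figure D4:**
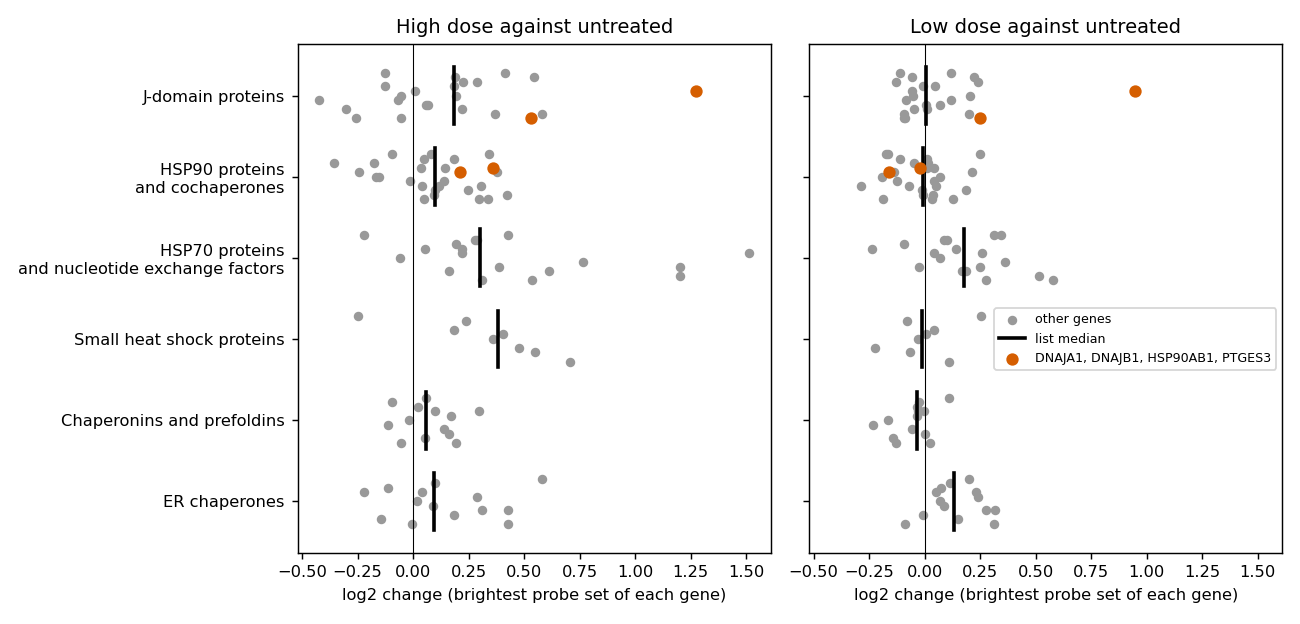
Log2 difference of each measured gene of 6 chaperone lists in high dose against untreated (left) and low dose against untreated (right), one point per gene, with the list median as a black bar and the 4 genes described here in orange. At the high dose the HSP70 and small heat shock lists have medians of 0.30 and 0.38; at the low dose the medians lie between -0.04 and 0.18.

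Immediate early genes, transcription factors and others induced within minutes of a stimulus, were high in several of the animals in which DNAJB1 was high. All 19 measured were above 0 in high dose against untreated, with a median of 1.79, 15 of them without overlap, where 53.3% and 14.7% of all probe sets were, and 0 passed. Their mean per animal was 7.94, 9.45 and 8.04 in untreated, 9.48, 7.84 and 8.97 in low-dose and 10.41 and 10.11 in high-dose pigs. U2 and L1, whose pig numbers come from the same run, had close means of 9.45 and 9.48 and close DNAJB1 levels of 7.79 and 7.82. The mean correlated with DNAJB1 at r = 0.78, with DNAJA1 at r = 0.66, with PTGES3 at r = 0.53 and with HSP90AB1 at r = 0.50 over the 8 arrays. Its part in the differences of the 4 genes was not tested.

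**Figure D5:**
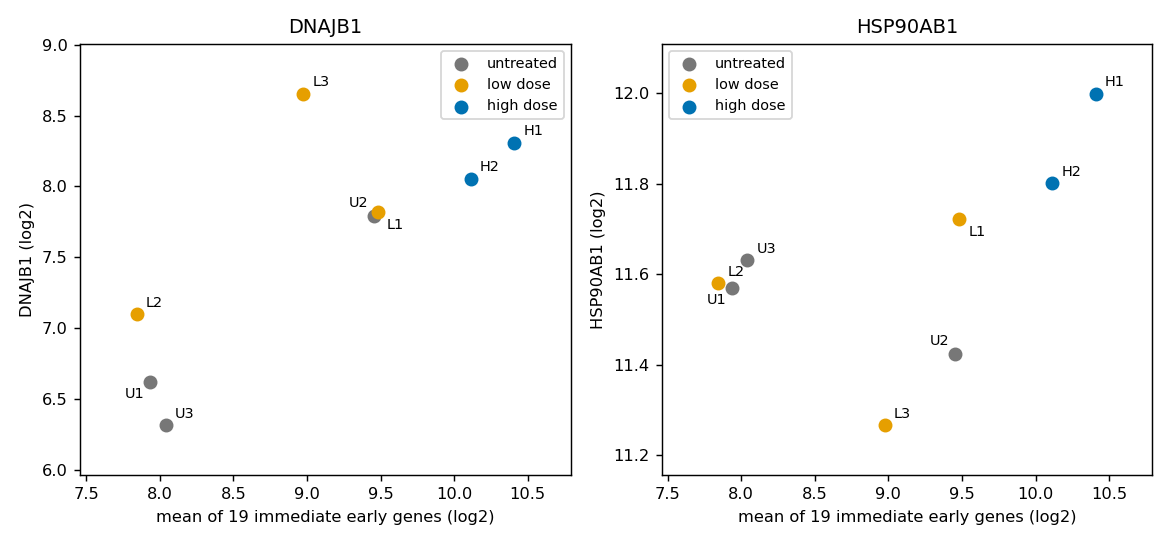
DNAJB1 (left) and HSP90AB1 (right) log2 level against the mean log2 level of 19 immediate early genes, one point per animal, coloured by group. For DNAJB1, U2 and L1 lie together at 7.79 and 7.82, and for HSP90AB1 L3 lies lowest, at 11.27.

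Marker lists of 5 other cell types had ranges at 1 of the doses that did not overlap with untreated. The mean of 9 fibroblast markers was 8.00 and 8.41 in the high-dose pigs, against 8.66 to 9.39 in untreated pigs, and 6 of the 9 lay below untreated without overlap, as did 12.0% of all probe sets. The mean of 8 macrophage markers was 6.26 and 6.37 in high-dose pigs, against 6.70 to 7.18 in untreated pigs. Erythrocyte genes averaged 5.78 and 5.80 over 3 genes in high-dose pigs, against 6.05 to 6.15 in untreated pigs, and the mean of the epicardial and mesothelial list was 5.38 to 5.60 in low-dose pigs, against 4.64 to 5.03 in untreated pigs. The mean of 3 Schwann cell and nerve markers was 4.91 in both high-dose pigs, against 5.03 to 5.14 in untreated pigs. In these 5 lists 0 genes passed the test, and 0 lay below the lower quartile on all arrays. In bulk tissue, fewer cells of a type and less RNA per cell cannot be told apart, and the part of these shifts in the differences of DNAJA1, DNAJB1, HSP90AB1 and PTGES3 was not tested.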

How the data were processed

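Left ventricular RNA of 8 pigs was measured on Affymetrix porcine arrays. Values deposited by the authors are on the log2 scale and cover 24123 probe sets. RMA and Partek 6.6 are named, per the submitters' processing notes, with no settings. RMA makes the arrays' distributions alike, so a change shared by most genes would be removed. Arrays carry no read depth, and their number limits the precision. After 124 control probe sets were left out, limma 3.58.1 in R 4.3.3 fitted 1 mean per group to the 8 arrays (5 residual and 3.50 prior degrees of freedom), with Benjamini-Hochberg adjustment over 23999 probe sets within each of 4 contrasts. Symbols came from the platform annotation (10069 probe sets with 1 symbol, 198 with several, 13732 with none). Groups came from the treatment label; each array is a different pig, and replicate numbers follow sample order and pair nothing. The method was tested on simulated data.

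The members and gene lists were chosen with earlier results of these data known. A gene with several probe sets is represented by the brightest. Named list genes were up to 4 per list with the largest absolute difference from untreated among genes at or above the median level; genes most like a member were the 5 with the highest Pearson r among genes with a range of at least 0.5. The marker lists were for cardiomyocytes, fibroblasts, macrophages, lymphocytes, endothelium, smooth muscle, erythrocytes, adipocytes, epicardium and nerve. Alternatives changed the variance prior, filter, scaling, arrays in the fit, weights, threshold and covariates, or left out arrays.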

Additional observations from a re-analysis of the deposited data

Results flagged for a closer look

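The dimmer PTGES3 probe set differed by 0.72 on the log2 scale between high and low dose. It drew attention because the doses lay on opposite sides of untreated: both high-dose pigs, at 7.83 and 7.78, and all 3 low-dose pigs, at 6.97, 7.10 and 7.16, lay outside the untreated range of 7.32 to 7.55. Tested directly in limma, the difference between the doses had an adjusted p of 0.147. The brighter PTGES3 probe set gave 0.37 for the same difference, with overlap between the doses.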

How the results depend on the processing

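Over 432 recomputed values of the 6 probe sets, 0 passed an adjusted p of 0.05, and 13 had the opposite sign after rounding to 2 decimals. For high dose against untreated the count of all probe sets passing was 0, and it became 4 with an intensity trend, 7 with a robust prior, 3 with median centring, 9 with quantile normalization run again, 2 with only the groups compared, 13 with array weights, 10 at a threshold of 0.1, 70 with a covariate for U2 and L1, whose pig numbers are of 1 run, 2 with one for the 3′ to 5′ gap, and 0 to 19 when 1 array was left out (19 without U2). For high against low dose it was 6, and it became 1 without dim probe sets, 0 with only the groups compared, 10 with array weights, 14 at 0.1, 25 with the pig-number covariate, 0 with the gap covariate, and 0 to 7 when 1 array was left out. Without both U2 and L1, an alternative chosen after seeing the data, the counts were 55 for high dose and 1 for low dose against untreated, 12 for high against low dose and 1 for the mean of both doses against untreated. For the mean of both doses against untreated, the dimmer PTGES3 probe set was 0.011, and -0.0075 with array weights, -0.016 with the pig-number covariate, -0.061 with the treated arrays as 1 group and -0.014 without both U2 and L1, and ranged from -0.041 to 0.069 when 1 array was left out. The brighter one was 0.024, and -0.013 with the treated arrays as 1 group, and ranged from -0.052 to 0.075. When 1 array was left out HSP90AB1 in low dose against untreated ranged from -0.12 to 0.11, and DNAJB1 in high against low dose from -0.053 to 0.73. DNAJB1 in high dose against untreated stayed between 0.98 and 1.71 under all 18 alternatives (adjusted p 0.194 to 1 in limma). The causes were not tested. No paired analysis was possible because each array is a different pig, in 1 treatment group.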

Other observations

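Genes of the HSP90 client list and of prostaglandin synthesis and its receptors, the second activity described for PTGES3, had medians close to 0. Many of them were dim: 8 of the 15 client genes and 4 of the 6 prostaglandin genes reached the median level of all probe sets. PGR among the client genes and PTGS2 among the prostaglandin genes lay below the lower quartile on all arrays. Of 15 measured client genes 9 were above and 6 below 0 in high dose against untreated, where 53.3% of all probe sets were above. Their median was 0.09 (0.04 when a gene's probe sets were averaged), and 0 passed an adjusted p of 0.05 in limma. EGFR, a receptor tyrosine kinase, differed by -0.41 ± 0.26 (SE), and by -0.50 on its other probe set. AKT1, a kinase of the insulin and growth factor pathway, differed by -0.24 ± 0.14, and by 0.04 on its other probe set. HSF1 and STK11, also on the client list, differed by 0.14 and 0.13 on their brightest probe sets. Of 6 prostaglandin genes 3 were above 0, with a median of 0.07, against the same 53.3%. Of the 5 other than PTGES3, 2 were above and 3 below, with a median of -0.06. PTGDS, which makes prostaglandin D2, differed by 0.72 ± 0.27.

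For 4 further marker lists the means per animal overlapped between high-dose and untreated pigs. The medians of the differences were -0.02 over 9 lymphocyte genes, -0.05 over 10 endothelial genes, 0.05 over 9 smooth muscle and pericyte genes and -0.05 over 6 adipocyte genes. Of the 9 lymphocyte genes 0 reached the median level of all probe sets, 5.37. Their mean per animal was 4.19 to 4.38, so little can be read from their median difference. The list of heat shock factors and regulators had a median of 0.19 over 6 genes, with DDIT3 at 0.85 ± 0.70 (SE), ATF4 at 0.47 ± 0.26 and XBP1 at 0.23 ± 0.14.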
